A study of Mus musculus with 7 samples.

Results

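The sterol and fatty acid synthesis genes of the mouse lung were followed here as a set of 31 named genes that are targets, or regulators, of the sterol regulatory element-binding proteins (SREBPs). They were chosen by name: 16 enzymes that turn acetyl-CoA into cholesterol, 11 enzymes that make, desaturate or elongate fatty acids, and 4 genes that regulate the pathway or carry sterol. All 31 were found among the 55401 genes of the count table, and all 31 were among the 17465 genes with enough reads to be tested. The samples were lungs of 7 male C57BL/6 mice, aged 6 to 8 weeks, that had received bleomycin, a drug that injures the alveoli and leaves fibrosis. The 4 BLM mice had bleomycin alone. The 3 BLM+HBO mice had bleomycin and then hyperbaric oxygen (HBO) at 2.5 ATA for 90 min a day on 14 days in a row, beginning on day 7, and all lungs were taken on day 21. The labels place the BLM mice in the chamber with no pressurised oxygen, whereas the study's supplementary methods describe them as untreated. Lungs without bleomycin were not analysed here, so every comparison is between injured lungs.

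Cholesterol and fatty acids are made from the same building block, acetyl-CoA, and both routes are controlled by SREBPs. These proteins sit in the endoplasmic reticulum with Scap and Insig proteins. When sterol is low they travel to the Golgi, are cut, and enter the nucleus, where the product of Srebf2 favours genes of cholesterol synthesis and uptake and a form made from Srebf1 favours genes of fatty acid synthesis. In the lung, alveolar type 2 (AT2) cells use much of this machinery, because surfactant consists largely of phospholipid with some cholesterol. RNA of bulk lung tissue was sequenced, from the right lobes by the study's supplementary methods, so fewer cells of a type and less RNA per cell cannot be told apart.

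The promoters of 4 members are shown because the results turn on 3 of them (Hsd17b7, Cyp51 and Acss2) and because Hmgcs1 was the member with the core letters of a sterol regulatory element in its window. Each runs from 250 bases before to 50 bases after the start of transcription and was taken from RefSeq on GRCm38.p6, 5′ to 3′ on the gene's own strand. Capitals mark ATTGG or its reverse complement, the letters of the box bound by the factor NF-Y that works beside SREBPs, and in Hmgcs1 also the sterol element. Hsd17b7 lies at chr1:169969156-169969455 on the minus strand, Cyp51 at chr5:4104648-4104947 on the minus strand, Acss2 at chr2:155517793-155518092 on the plus strand and Hmgcs1 at chr13:119690101-119690400 on the plus strand.
Hsd17b7: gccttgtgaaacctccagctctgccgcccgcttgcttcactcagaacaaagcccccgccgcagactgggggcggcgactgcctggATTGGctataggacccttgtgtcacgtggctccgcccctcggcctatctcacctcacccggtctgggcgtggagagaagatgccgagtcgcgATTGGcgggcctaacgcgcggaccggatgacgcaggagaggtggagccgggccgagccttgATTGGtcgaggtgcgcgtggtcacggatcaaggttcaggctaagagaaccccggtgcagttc
Cyp51: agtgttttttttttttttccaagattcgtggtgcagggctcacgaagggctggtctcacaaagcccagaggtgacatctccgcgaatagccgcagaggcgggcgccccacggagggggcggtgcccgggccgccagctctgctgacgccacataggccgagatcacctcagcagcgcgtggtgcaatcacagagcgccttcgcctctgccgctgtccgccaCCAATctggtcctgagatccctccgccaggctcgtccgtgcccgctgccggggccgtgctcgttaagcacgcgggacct
Acss2: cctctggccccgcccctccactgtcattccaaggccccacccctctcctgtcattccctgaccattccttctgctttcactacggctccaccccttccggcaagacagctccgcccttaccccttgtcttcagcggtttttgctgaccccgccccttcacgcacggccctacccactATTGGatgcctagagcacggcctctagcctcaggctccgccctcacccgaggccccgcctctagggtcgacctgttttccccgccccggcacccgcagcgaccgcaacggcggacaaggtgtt
Hmgcs1: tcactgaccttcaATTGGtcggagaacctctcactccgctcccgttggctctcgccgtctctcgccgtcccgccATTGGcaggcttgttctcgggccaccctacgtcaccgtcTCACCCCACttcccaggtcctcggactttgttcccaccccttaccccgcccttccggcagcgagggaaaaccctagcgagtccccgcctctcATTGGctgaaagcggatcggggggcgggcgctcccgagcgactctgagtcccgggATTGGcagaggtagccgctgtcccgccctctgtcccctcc

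Windows were found for 24 of the 31 members, and because some genes have several starts they made up 31 promoters. Fdps, Fdft1, Sqle, Stard4, Scd1, Scd2 and Fads1 had no entry. The letters TCACNCCAC, searched on both strands, stood in 1 of the 31 member promoters (3.226%) and in 1.242% of all 32851 promoters. That match was TCACCCCAC in Hmgcs1, with its first base at -137 from the start. The letters ATTGG stood in 22 member promoters (70.968%), against 37.408% of all promoters. The GC box letters GGGCGG stood in 23 (74.194%), against 35.658%. Matches of the 3 motifs can share bases at their ends and were counted separately, and a match is a description of the letters alone.

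Few of these genes differed between the groups, and the members' share was close to that of all genes. At an unadjusted P below 0.05 in edgeR's quasi-likelihood test, 1 of 31 members was higher in BLM+HBO (Acss2) and 2 were lower (Cyp51 and Hsd17b7). Over all genes tested, 5.11% were higher and 5.54% lower by the same rule. By the study's threshold, which also asks for a fold change above 1.5, 1 member was higher and 0 lower, beside 3.40% and 2.89% of all genes. No member passed an adjusted P of 0.05, and neither did any gene, so that background was 0.00%. The groups did not overlap in 2 members, both lower in BLM+HBO, where 4.72% of all genes were lower and 4.05% higher without overlap. DESeq2 called the same numbers, 1 higher and 2 lower at its unadjusted P, beside 3.28% and 3.42% of the 32868 genes it tested. That set also held genes with too few reads for the edgeR test, so these shares are not on the same footing as those above. At its adjusted P it called 0 members, and 0.892% of the genes given an adjusted P passed.

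The fitted changes were small in most members. The log2 fold change of BLM+HBO against BLM ran from -0.51 (Hsd17b7) to 0.65 (Acss2), with a median of -0.05, beside a median of 0.01 over all genes. It lay below 0 in 21 members and above 0 in 10, whereas 51.2% of all genes lay above 0. For 22 of the 31 members the 95% interval fell inside a 1.5-fold change in either direction. Standard errors ran from 0.10 to 0.42 on the log2 scale.

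**Figure D1:**
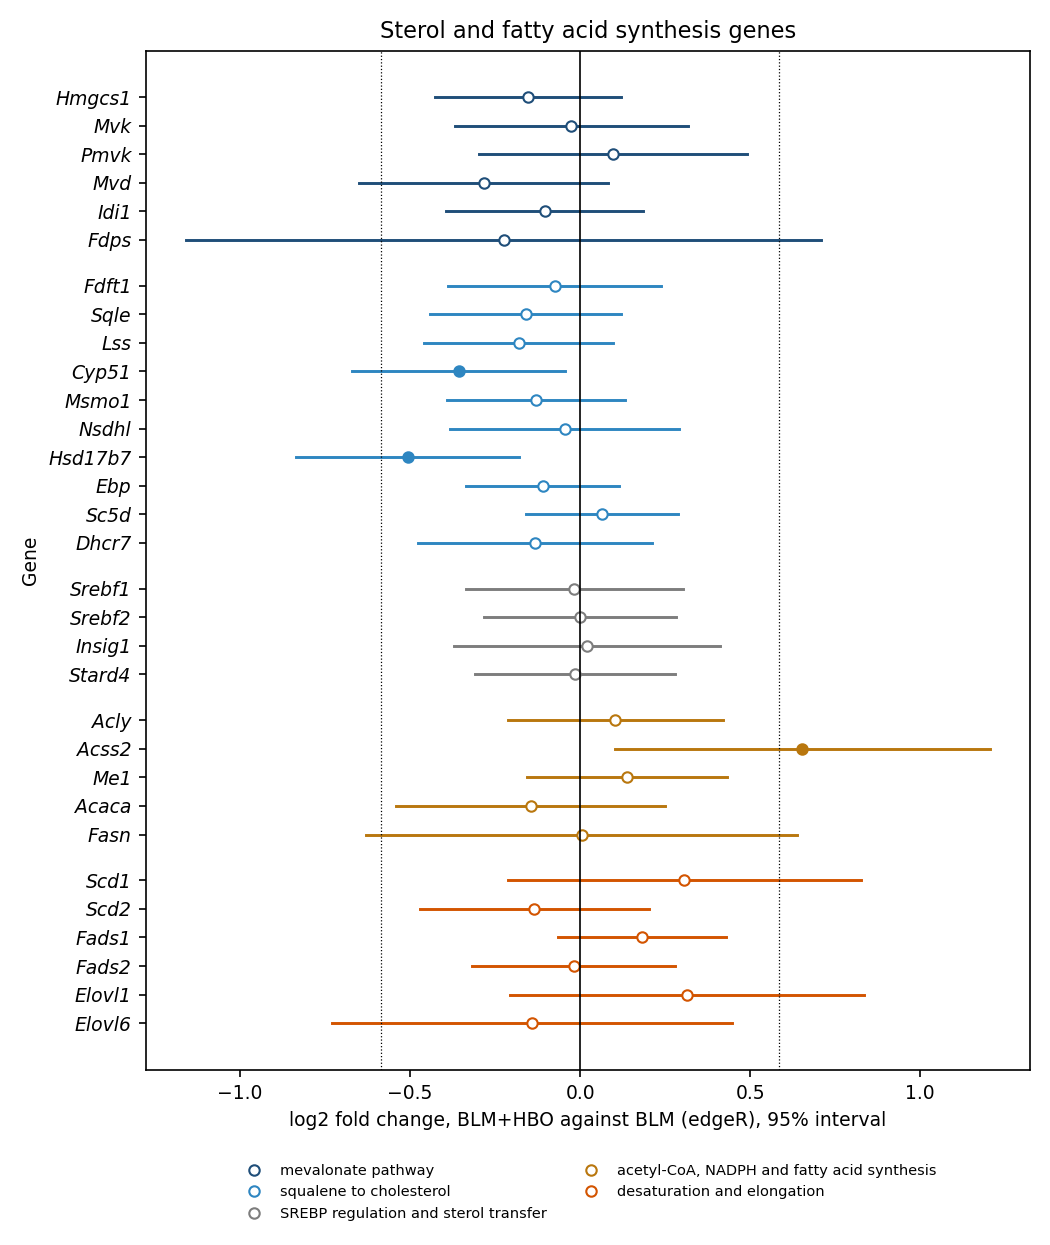
Log2 fold change of BLM+HBO against BLM for the 31 members (x axis) by gene (y axis), with 95% intervals from edgeR, coloured by role. Filled points have an unadjusted P below 0.05, dotted lines mark a 1.5-fold change, and only Hsd17b7, Cyp51 and Acss2 are filled.

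BLM+HBO 2 resembled the BLM mice more than the other BLM+HBO mice did. Total counts ran from 18157161 to 26365969 per mouse, the highest in BLM+HBO 3. On the first principal component of all genes tested (37.3% of variance) the BLM mice lay between -47.6 and -6.08, BLM+HBO 2 at -0.996, and BLM+HBO 1 and 3 at 54.8 and 37.8. Without BLM+HBO 2, 2 members were higher (Acss2 and Elovl1) and 2 lower (Cyp51 and Hsd17b7), where 7.48% of all genes were higher and 8.46% lower. No member passed an adjusted P of 0.05 without it, although 1.49% of all genes did.

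The mevalonate pathway holds the steps from acetyl-CoA units to farnesyl diphosphate. None of its 6 members passed the test, and 5 of 6 fitted changes lay below 0, with a median of -0.13. Hmgcs1, the cytosolic HMG-CoA synthase, had 106, 122, 134 and 129.9 CPM (read counts scaled to the size of each library) in BLM 1 to 4 and 111, 123 and 98.1 CPM in BLM+HBO 1 to 3. The groups overlapped and the log2 fold change was -0.15 (SE 0.12). Mvd, the mevalonate diphosphate decarboxylase, had 26.9, 35.8, 43.3 and 30.6 CPM in BLM and 26.1, 29.8 and 28.3 CPM in BLM+HBO. It was the mevalonate member with the lowest fitted change, -0.28 (95% interval -0.65 to 0.08, unadjusted P of 0.114). BLM 3 was the highest mouse for Mvd, and without it the change was -0.15 (unadjusted P of 0.312 by edgeR). Without BLM 1 the change was -0.38 and passed the unadjusted threshold, which it did without no other single mouse.

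Mvk and Pmvk, the kinases that add phosphates to mevalonate, did not move in a common direction. Mvk averaged 27.3 ± 4.54 CPM in BLM (SD, n = 4) and 26.8 ± 2.87 CPM in BLM+HBO (SD, n = 3), which the fit gave as -0.03 on the log2 scale. Pmvk averaged 44.6 ± 10.3 CPM in BLM and 47.7 ± 5.91 CPM in BLM+HBO, a change of 0.10. Idi1, the isopentenyl diphosphate isomerase, averaged 25.1 ± 1.90 CPM in BLM and 23.4 ± 2.87 CPM in BLM+HBO, a change of -0.10. Fdps, the farnesyl diphosphate synthase, rested on 49, 21, 54 and 52 reads in BLM and 52, 23 and 61 reads in BLM+HBO. Its interval ran from -1.16 to 0.71, so that a change larger than 2-fold downwards was not excluded by these counts.

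Fdps was also the member whose reads were hardest to place. Of all 100-base stretches of its annotated transcript, 75.8% were shared with transcripts of other genes, named Gm43738, Gm3571 and Gm5873. The counting left out reads that map to several places, so its level is uncertain. The same share was 42.8% for Acaca, 27.6% for Idi1, 21.5% for Fdft1, 17.2% for Me1 and 10.8% for Hmgcs1, and 4.03% or less for the other members.

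The steps from squalene to cholesterol held both members that fell by the unadjusted test. Of these 10 genes 9 had fitted changes below 0 and 1 above, with a median of -0.13, and 2 passed the unadjusted threshold. Over all genes tested, 48.8% of the changes lay below 0 and 5.54% of genes were lower at that threshold. Hsd17b7, a keto-reductase of sterol demethylation, had 34.7, 30.1, 31.1 and 28.2 CPM in BLM 1 to 4 and 18.5, 26.2 and 20.7 CPM in BLM+HBO 1 to 3. All 3 BLM+HBO values lay under the lowest BLM value, with BLM+HBO 2 closest to it. The log2 fold change was -0.51 (SE 0.15, 95% interval -0.83 to -0.18), with an unadjusted P of 0.00648 and an adjusted P of 0.423 by edgeR, which ran from 0.0652 to 0.802 over the other settings. Leaving out any single mouse kept it below the unadjusted threshold, with changes from -0.66 to -0.40, and without BLM+HBO 2 its P was 0.00149. The gene was read with 348 to 630 counts per mouse.

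Cyp51, the lanosterol demethylase, is a cytochrome P450. It had 80.7, 75.3, 97.5 and 79.1 CPM in BLM and 66.2, 74.9 and 53.7 CPM in BLM+HBO. The groups did not overlap, but BLM+HBO 2 at 74.9 CPM lay just under BLM 2 at 75.3 CPM. The log2 fold change was -0.36 (SE 0.14, 95% interval -0.67 to -0.04), with an unadjusted P of 0.0294 and an adjusted P of 0.440 by edgeR, ranging from 0.161 to 0.802 over the other settings. It passed no longer without BLM 3, BLM+HBO 1 or BLM+HBO 3, where the changes were -0.27, -0.37 and -0.24, nor with the replicate number as a block, where it was -0.38 with an unadjusted P of 0.0702.

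**Figure D2:**
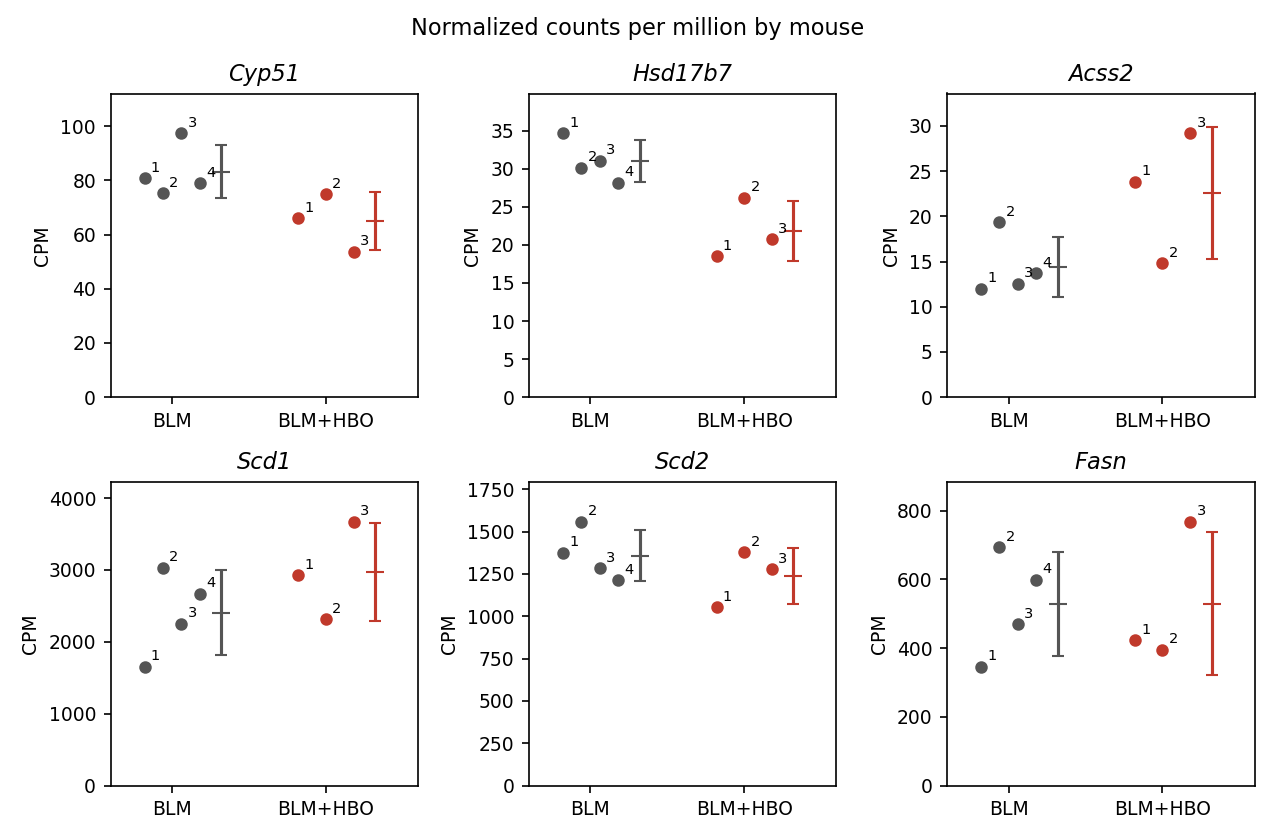
CPM (y axis, from 0) of Cyp51, Hsd17b7, Acss2, Scd1, Scd2 and Fasn in each BLM (grey) and BLM+HBO (red) mouse, numbered by replicate, with the mean and SD to the right of the points. The groups do not overlap for Cyp51 and Hsd17b7 and overlap for the other 4 genes.

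The other squalene-to-cholesterol members had overlapping groups and did not pass the test. Squalene synthase (Fdft1) averaged 54.6 ± 9.19 CPM in BLM and 51.9 ± 1.67 CPM in BLM+HBO, with a fitted log2 change of -0.07. Squalene epoxidase (Sqle), a slow step of the route, averaged 58.2 ± 6.81 and 52.1 ± 5.89 CPM, a change of -0.16 (95% interval -0.44 to 0.12). Lanosterol synthase (Lss) averaged 30.9 ± 1.57 and 27.3 ± 3.77 CPM, a change of -0.18 (95% interval -0.46 to 0.10). BLM+HBO 1 sat inside the BLM range for Lss at 31.5 CPM, while BLM+HBO 2 and 3 were below it at 25.99 and 24.3 CPM.

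Msmo1, the sterol methyl oxidase, averaged 59.1 ± 4.86 CPM in BLM and 54.0 ± 6.21 CPM in BLM+HBO, a change of -0.13. Nsdhl, the decarboxylating dehydrogenase that follows it, changed by -0.05 and Ebp, the sterol isomerase, by -0.11. Sc5d, the sterol desaturase, was the exception in sign, with 52.5 ± 3.00 CPM in BLM and 54.9 ± 3.65 CPM in BLM+HBO, a change of 0.06. It also varied least of the members, its 7 mice spanning 0.27 on the log2 scale. Dhcr7, the reductase that yields cholesterol, averaged 24.8 ± 3.67 and 22.6 ± 2.87 CPM, a change of -0.13.

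Over the 16 sterol enzymes together, 14 had fitted changes below 0 and the median was -0.13, beside 48.8% of all genes below 0. The genes of 1 pathway vary together within a mouse, so these 14 are not separate observations. BLM 3 was the highest of the 7 mice for 11 of the 16 enzymes while BLM+HBO 3 was the lowest for 6 of them and BLM 1 for 5. The mean deviation from the BLM mean was -0.11, -0.03, 0.17 and -0.02 on the log2 CPM scale in BLM 1 to 4 and -0.07, -0.17 and -0.19 in BLM+HBO 1 to 3. BLM 1 thus lay between BLM+HBO 1 and BLM+HBO 2.

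The regulators of the pathway did not differ between the groups beyond their spread. Srebf2 had 160.2, 188, 195 and 212 CPM in BLM and 175, 179 and 211.5 CPM in BLM+HBO, with a fitted log2 change of -0.0010 (95% interval -0.28 to 0.28). Srebf1 had 127, 164, 163 and 148 CPM in BLM and 132, 136 and 179 CPM in BLM+HBO, a change of -0.02 (95% interval -0.34 to 0.30). Gene counts join the transcript forms of Srebf1, which were not told apart. The activity of SREBP proteins is set by their cutting and was not measured.

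Insig1, which holds SREBPs in the endoplasmic reticulum and is itself an SREBP target, had 64.0, 72.6, 65.5 and 59.4 CPM in BLM and 81.5, 46.6 and 70.8 CPM in BLM+HBO. BLM+HBO 1 was the highest and BLM+HBO 2 the lowest of the 7 mice, and the log2 fold change was 0.02 (95% interval -0.37 to 0.41). Stard4, a cytosolic sterol carrier, averaged 57.0 ± 8.35 CPM in BLM and 56.5 ± 4.70 CPM in BLM+HBO, a change of -0.01.

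The fatty acid branch was uneven, and its largest difference was in Acss2. This enzyme makes acetyl-CoA from acetate. It had 12.0, 19.3, 12.6 and 13.7 CPM in BLM 1 to 4 and 23.9, 14.8 and 29.2 CPM in BLM+HBO 1 to 3. BLM+HBO 1 and 3 exceeded every BLM mouse, but BLM+HBO 2 was below BLM 2, so the groups overlapped. The log2 fold change was 0.65 (SE 0.25, 95% interval 0.10 to 1.204), with an unadjusted P of 0.0249 and an adjusted P of 0.438 by edgeR, which ran from 0.0792 to 0.802 over the other settings. The gene passed the unadjusted threshold without BLM 2 or BLM+HBO 2 but not without any of the other 5 mice, where the change was 0.57 to 0.63 in 4 fits and 0.42 without BLM+HBO 3. With the replicate number as a block the change was 0.61 and its unadjusted P 0.1005, and without BLM+HBO 2 the change was 0.88 (unadjusted P of 0.00237). Of the 100-base stretches of its transcript, 4.03% are shared with Ggt7 and the antisense gene Acss2os, and without strand in the counting reads from that portion cannot be told apart.

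The other suppliers of acetyl-CoA and NADPH did not pass the test. Acly, the ATP citrate lyase, averaged 180.6 ± 20.8 CPM in BLM and 194 ± 31.4 CPM in BLM+HBO, a change of 0.10 (95% interval -0.21 to 0.42). Me1, the malic enzyme that yields NADPH, had 90.4, 123, 122 and 124 CPM in BLM and 130.5, 116 and 133 CPM in BLM+HBO, a change of 0.14. BLM 1 stood below all other mice for Me1.

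Acaca and Fasn, which commit carbon to fatty acids and assemble palmitate, spread widely within each group. Fasn had 346, 694, 471 and 599 CPM in BLM and 424, 396 and 768 CPM in BLM+HBO. BLM 1 was the lowest mouse and BLM+HBO 3 the highest, the group means were 528 and 529 CPM, and the log2 fold change was 0.0044 (95% interval -0.63 to 0.64). Acaca averaged 57.3 ± 8.78 CPM in BLM and 51.7 ± 13.1 CPM in BLM+HBO, a change of -0.14, which was -0.38 without BLM+HBO 3.

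Scd1 and Scd2, the desaturases that make monounsaturated fatty acids, were the members with the highest levels per length. Scd1 had 491 RPKM (reads scaled to exon length and library size) in BLM and 608 RPKM in BLM+HBO as group means, Scd2 had 249 and 227 RPKM, and Elovl1 and Fasn followed. Scd1 had 1657, 3032, 2254 and 2671 CPM in BLM and 2931, 2316 and 3672 CPM in BLM+HBO. Its log2 fold change of 0.31 (SE 0.23, 95% interval -0.21 to 0.83, unadjusted P of 0.215) was within the spread between mice. Scd2 had 1376, 1559, 1285 and 1213 CPM in BLM and 1053, 1380 and 1280 CPM in BLM+HBO, a change of -0.13 (95% interval -0.47 to 0.20).

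The ratio of Scd1 to Scd2 was looked at after these values were seen. It was 1.204, 1.95, 1.75 and 2.202 in BLM and 2.78, 1.68 and 2.87 in BLM+HBO, so BLM+HBO 1 and 3 exceeded every BLM mouse and BLM+HBO 2 did not. The mean log2 ratio was 0.45 higher in BLM+HBO, with a two-sided exact permutation P of 0.229. The smallest P this design allows is 0.0571, so no such comparison of single values could pass 0.05.

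Among the other desaturases and elongases, Fads1, the delta-5 desaturase of polyunsaturated fatty acids, had 120.3, 146, 119.7 and 143 CPM in BLM and 154, 145 and 151 CPM in BLM+HBO. Its log2 fold change was 0.18 (95% interval -0.07 to 0.43, unadjusted P of 0.131), and BLM+HBO 2 lay inside the BLM range. Fads2, the delta-6 desaturase, averaged 84.9 ± 9.91 and 83.7 ± 12.1 CPM, a change of -0.02. Elovl6, the elongase of palmitate, averaged 9.77 ± 2.48 and 8.86 ± 2.78 CPM, a change of -0.14.

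Elovl1, the elongase of saturated very long chains, had 228, 401, 353 and 395 CPM in BLM and 496, 297 and 490.4 CPM in BLM+HBO. BLM+HBO 1 and 3 exceeded every BLM mouse and BLM 1 was the lowest. The log2 fold change was 0.31 (95% interval -0.21 to 0.84, unadjusted P of 0.208), and without BLM+HBO 2 it was 0.52 with an unadjusted P of 0.0358 and an adjusted P of 0.273 by edgeR.

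Over the 11 fatty acid enzymes, 7 had fitted changes above 0 and 4 below, with a median of 0.10 that turned to -0.011 without BLM+HBO 3 and was 0.038 without BLM 1. BLM 1 was the lowest of the 7 mice for 5 of them and BLM+HBO 3 the highest for 5. The mean deviation from the BLM mean was -0.25, 0.24, -0.09 and 0.10 on the log2 CPM scale in BLM 1 to 4, and 0.03, -0.03 and 0.32 in BLM+HBO 1 to 3. The BLM mice alone therefore spanned most of the range seen in the fatty acid genes.

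**Figure D3:**
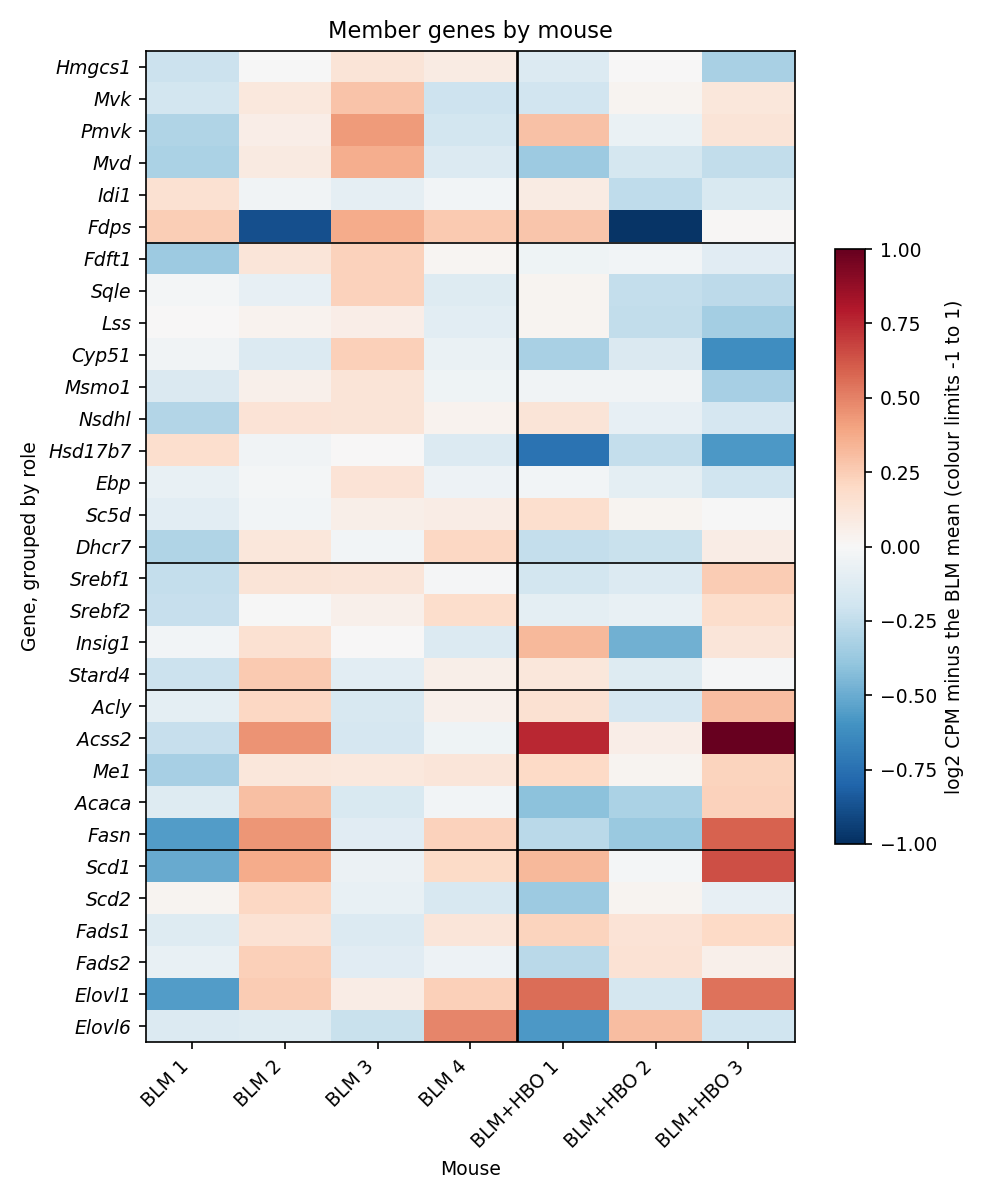
Log2 CPM of each member (y axis, grouped by role) in each mouse (x axis) minus the mean of the 4 BLM mice, in colour from -1 to 1. BLM 1 is low and BLM+HBO 3 high in Fasn, Scd1 and Elovl1, and BLM+HBO 3 is low in Cyp51 and Hsd17b7. Fdps in BLM+HBO 2 and Acss2 in BLM+HBO 3 lie at the ends of the scale.

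Of the 11 fatty acid enzymes, 4 followed the level of AT2 cell markers across the mice with a correlation above 0.8, a relation that was looked for after the values by mouse were seen. The summed level of 14 AT2 markers, such as the surfactant protein genes, was 10550, 19180, 18160 and 17810 CPM in BLM 1 to 4 and 27830, 13480 and 32190 CPM in BLM+HBO 1 to 3. Its largest part was Sftpc, which averaged 7630 CPM in BLM and 12540 CPM in BLM+HBO. All 14 had fitted log2 changes above 0, from 0.13 to 1.56. Of these, 3 passed the unadjusted threshold, where 5.11% of all genes were higher. The groups overlapped in the summed level. Over the 7 mice, Elovl1 followed this level with Pearson's r = 0.965 and Spearman's rho = 0.929 (exact permutation P = 0.00139 and 0.00675, Benjamini-Hochberg adjusted over all genes 0.233 and 0.352). Without BLM 1 and BLM+HBO 3, the mice farthest from the median marker level on the log2 scale used for these correlations, r was 0.964. Scd1 had r = 0.907 and rho = 0.857 (exact permutation P = 0.00556 and 0.0238, adjusted 0.260 and 0.539), and r fell to 0.661 without those 2 mice.

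Of the 31 members 4 had r above 0.8 with the AT2 level (Elovl1, Scd1, Acss2 and Me1), and so had 4.42% of all genes tested. Acss2 had r = 0.879 and rho = 0.857 (exact permutation P = 0.00774 and 0.0238, adjusted 0.267 and 0.539), and 0.740 without those 2 mice. Me1 had r = 0.869 and rho = 0.893 (exact permutation P = 0.000794 and 0.0123, adjusted 0.229 and 0.430), and 0.981 without them. Fasn had r = 0.654 and rho = 0.750 (exact permutation P = 0.118 and 0.0663, adjusted 0.495 and 0.604), and 0.05 without them, so its relation rested on those mice. Hsd17b7 ran the other way, with r = -0.82 and rho = -0.64 (exact permutation P = 0.0252 and 0.139, adjusted 0.316 and 0.646), and -0.66 without them. It was the 1 member of 31 with r below -0.8, beside 4.84% of all genes tested. Among the other fatty acid enzymes r was 0.789 for Acly, 0.658 for Fads1 and 0.25 for Acaca, and it was below 0 for Scd2 (-0.48), Elovl6 (-0.46) and Fads2 (-0.18).

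The AT2 list was not the only list that members followed. With the summed level of 12 adipocyte markers, 4 members also had r above 0.8, beside 1.615% of all genes tested. Most of that sum came from Pnpla2 and Lipe, lipases that other cells express as well, so it is not a level of adipocytes alone. Fasn had r = 0.959 and rho = 0.964 (exact permutation P = 0.00198 and 0.00278, adjusted 0.935 and 0.896), and 0.917 without BLM 1 and BLM+HBO 2, the mice farthest from the median. Dhcr7, Srebf2 and Srebf1 had r = 0.927, 0.924 and 0.922 and rho = 0.857, 0.893 and 0.857 (exact permutation P for r = 0.00853, 0.00516 and 0.00813, all adjusted to 0.941, and for rho = 0.0238, 0.0123 and 0.0238, all adjusted to 0.896), and 0.847, 0.855 and 0.868 without those 2 mice. In the summed level of lipid-associated macrophage markers BLM+HBO 1 and 3 stood apart from the other 5 mice, so no pooled correlation is given. These 2 mice were also the lowest for Hsd17b7 and Cyp51 and the highest for Acss2. They had the highest AT2 level too, at 27830 and 32190 CPM against at most 19180 CPM in the other mice. The pooled AT2 relations can therefore partly reflect the same 2 mice. A total of 155 such relations was computed, with 5 marker lists, and none passed the adjusted threshold, the lowest adjusted P being 0.0707 for Hsd17b7 with the lipid-associated macrophage list (permutation test). Both groups were pooled in them, since neither holds the 6 mice a relation within a group would need. Each r and its permutation P therefore also carry any difference between the groups, which was not separated out. The part of any of these cells in the members' values was not tested.

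**Figure D4:**
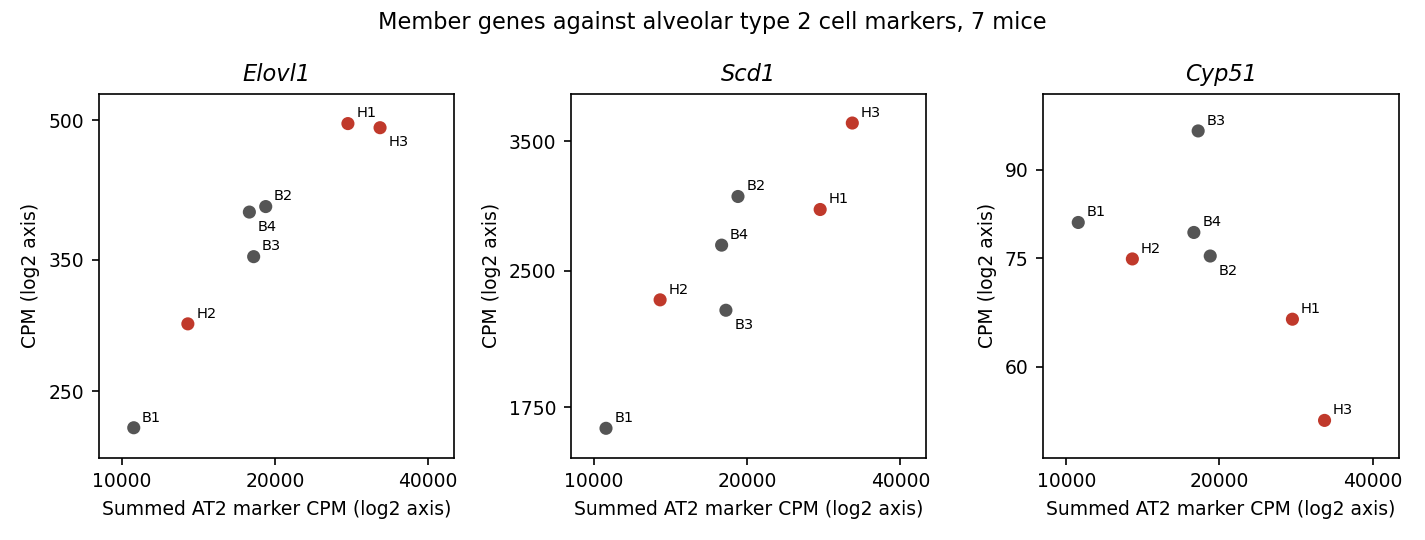
CPM of Elovl1, Scd1 and Cyp51 (y axes, log2 scale) against the summed CPM of 14 AT2 markers (x axis, log2 scale) in BLM (grey, B1 to B4) and BLM+HBO (red, H1 to H3) mice. Elovl1 and Scd1 are higher where the marker level is higher across both groups, and Cyp51 is lowest in H1 and H3, the mice with the highest marker level.

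Further marker lists and clock genes are given here by their summed level and counts, with no gene past an adjusted P of 0.05. At the unadjusted threshold, 5.11% of all genes were higher and 5.54% lower. The summed level of 8 markers of lipid-associated macrophages, which take up and store lipid, ran from 6386 to 7479 CPM in BLM and was 2793, 5789 and 3091 CPM in BLM+HBO. Most of that difference lay in Spp1, which averaged 4232 CPM in BLM and 1584 CPM in BLM+HBO. None of the 8 fitted changes lay above 0 and 2 passed the unadjusted threshold, while Cd9, Fabp5 and Cd36 had fitted log2 changes of -0.06, -0.07 and -0.02. Heart muscle markers ran from 68.5 to 189 CPM in BLM and from 167 to 723 CPM in BLM+HBO, with overlapping sums and 9 of 10 past the threshold. Clock genes of the PAR bZIP and repressor phase ran from 352 to 576 CPM in BLM and from 692 to 1206 CPM in BLM+HBO, with 8 of 10 past the threshold, and those of the activator phase from 137 to 169 CPM in BLM and from 103 to 121 CPM in BLM+HBO, with 2 of 5 past it. Club and ciliated cell markers (3 of 8 higher) and lipofibroblast markers (2 of 7 higher) also had medians above 0, of 0.60 and 0.23. The part of the clock genes in the members' values was not tested either.

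Adipocytes make fatty acids with the same enzymes. Of their defining markers, Adipoq was at most 0.788 CPM in any mouse, Plin1 0.670, Lep 0.0526 and Retn 0.316 CPM, all near 0. Other markers of the list had higher levels: Fabp4 averaged 15.6 CPM in BLM and 10.1 CPM in BLM+HBO, and Cidec, Cfd, Adrb3 and Plin4 reached at most 4.99, 4.96, 8.25 and 5.26 CPM. Of 12 adipocyte markers, 8 had enough reads to be tested, 2 were higher (Adrb3 and Plin4) and 1 lower (Fabp4). The summed level ran from 154 to 199.8 CPM in BLM and from 163 to 213 CPM in BLM+HBO, and most of it came from Pnpla2 and Lipe, lipases that other cells express as well. AT1 markers (0 higher and 1 lower of 8), alveolar macrophage markers (1 higher and 3 lower of 7 tested) and proliferation markers (0 higher and 3 lower of 10) had medians of 0.06, 0.29 and -0.40.

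The wider pathway was described by 32 further genes of sterol and lipid synthesis. Of these, 2 were higher and 1 lower at an unadjusted P below 0.05, beside 5.11% and 5.54% of all genes. Of the 32 fitted changes 22 lay above 0, and the median was 0.06. The 6 further sterol synthesis genes gave no call, 5 of the 6 changes lay above 0, and their median was 0.02, beside -0.13 over the 16 member enzymes, a difference that was not tested.

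Genes that join fatty acids to coenzyme A or to glycerol supplied the 2 higher calls. Dgat2, which makes triglyceride, had 6.55, 6.65, 6.20 and 6.37 CPM in BLM and 15.5, 7.75 and 7.80 CPM in BLM+HBO. Every BLM+HBO mouse exceeded every BLM mouse, but BLM+HBO 1 stood well above the other two. The log2 fold change was 0.68 (SE 0.26, unadjusted P of 0.0272, adjusted P = 0.438 by edgeR). Acsl1, an acyl-CoA synthetase, had 43.0, 42.2, 34.2 and 36.6 CPM in BLM and 58.2, 39.3 and 55.0 CPM in BLM+HBO, with overlapping groups and a change of 0.38 (unadjusted P of 0.0321, adjusted P = 0.442 by edgeR). Without BLM+HBO 2, 6 of the 32 genes were higher and 1 lower, where 7.48% of all genes were higher and 8.46% lower.

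Of 9 genes of the LXR and ChREBP routes, which also feed into lipid synthesis, 1 was higher and 1 lower, beside 5.11% and 5.54% of all genes. Lpcat3, an LXR target that puts polyunsaturated chains into phospholipids, had 76.4, 98.0, 82.3 and 83.9 CPM in BLM and 56.2, 69.9 and 73.2 CPM in BLM+HBO, without overlap. Its log2 fold change was -0.36 (SE 0.13, unadjusted P of 0.0203, adjusted P = 0.425 by edgeR). Mlxipl, which encodes ChREBP, had 0.496, 1.24, 1.65 and 1.47 CPM in BLM and 1.81, 2.54 and 2.92 CPM in BLM+HBO, a change of 0.997 (SE 0.41, unadjusted P of 0.0349, adjusted P = 0.447 by edgeR) at a level near the limit for testing.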

How the data were processed

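RNA was sequenced from lungs of 4 BLM and 3 BLM+HBO mice. The authors trimmed reads with Trim Galore, aligned them with HISAT2 2.2.0 to GRCm38 and deposited raw counts per gene from featureCounts (2.2.0 per the labels), without strand and without reads that map to several places. The annotation release is not given in the sources used here. Gene IDs were given symbols with GENCODE vM21 (55141 of 55401 matched).

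Counts were tested in R 4.3.3 with edgeR 4.0.16 (TMM, filterByExpr with a minimum count of 10, quasi-likelihood test, BLM+HBO against BLM), with Benjamini-Hochberg adjustment over all 17465 genes. CPM are counts over TMM-scaled library sizes, and RPKM also use the table's exon length. DESeq2 1.42.0 and limma 3.58.1 (limma-trend) served as alternatives. No 2 libraries of a group were alike within sampling noise (chi-square per gene at least 22.1). The scripts were tested on simulated data.

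The members and lists were chosen with earlier results of these data known. All 31 members are named. Of the other pathway, LXR and ChREBP genes, those at an unadjusted P below 0.05 are named, except 1 item that is not reported here. Single markers are named where a result turns on them.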

Additional observations from a re-analysis of the deposited data

Results flagged for a closer look

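Values of the 4 BLM mice were examined for a mouse far from the other 3 by Dixon's test in 32 sets (the members' log2 CPM and the total count), of which chance flags about 1 in 20. The total count of BLM 4 was 19002242, with the others between 18436336 and 18452895. Fdps in BLM 2 was at 0.361 log2 CPM, with the others from 1.48 to 1.62. Me1 in BLM 1 was at 6.499 log2 CPM, with the others from 6.93 to 6.95. Fads2 in BLM 2 was at 6.64 log2 CPM, with the others from 6.29 to 6.35. Elovl6 in BLM 4 was at 3.76 log2 CPM, with the others from 3.05 to 3.14. Each of these genes had overlapping groups.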

How the results depend on the processing

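Each of DESeq2, limma-trend, RLE factors, the robust option, a 1 CPM minimum in 3 mice and dropping the filter left the members at 1 higher and 2 lower, and kept the signs of both branch medians. At P below 0.01, 0 members were higher and 1 lower. Shares of all genes at an unadjusted P were computed only at 0.05, for the main test, DESeq2 and the fit without BLM+HBO 2. The other counts in this paragraph therefore have no such share beside them. Deviations of same-numbered mice had correlations of -0.01, -0.07 and 0.16, which gave no clear sign that the numbers pair the mice but cannot exclude it. With a replicate block 0 members were higher, 1 was lower, 0 passed the study's threshold and 1 other pathway gene was called. Leaving out each mouse gave 0 to 2 members higher, 1 to 3 lower, 0 to 2 past the study's threshold, 1 to 7 other pathway genes, a sterol median from -0.17 to -0.09 and a fatty acid median from -0.011 (without BLM+HBO 3) to 0.19 (without BLM+HBO 2). No member passed an adjusted P of 0.05 under any of these, although all genes gave 0 calls in the main test and 387 without a filter, 151 by DESeq2, 267 without BLM+HBO 2 and 2 without BLM+HBO 3.

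No member called in the main test changed sign. Other members did, and not only those near 0: in the main test Fdps was at -0.22, Elovl6 at -0.14 and Acly at 0.10. Srebf2 was at 0.00078 with limma-trend, 0.0033 with the 1 CPM filter and 0.059 with the block. Insig1 was at -0.015 with limma-trend and -0.057 with the block, where Stard4 was at 0.014 and Elovl6 at 0.012. Fasn was at -0.0040 with DESeq2, -0.015 with limma-trend and -0.0013 with no filter. Over the leave-one-out fits Mvk ran from -0.096 to 0.077, Fdps from -0.49 to 0.072, Fdft1 from -0.18 to 0.0043, Nsdhl from -0.13 to 0.012, Srebf1 from -0.17 to 0.063, Srebf2 from -0.097 to 0.060, Insig1 from -0.15 to 0.22, Stard4 from -0.084 to 0.078, Acly from -0.011 to 0.22, Fasn from -0.37 to 0.17, Fads2 from -0.11 to 0.093 and Elovl6 from -0.41 to 0.055. The causes were not tested.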
